A study of Mus musculus with 24 samples.

Results

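The phase II conjugation enzymes attach a polar group to drugs, steroids, bilirubin, bile acids and reactive electrophiles, so that the product can leave the cell in bile or urine. They were taken here as the protein-coding genes whose symbols begin with Ugt1 or Ugt2 (UDP-glucuronosyltransferases), with Sult and a digit (sulfotransferases), or with Gst and the letter of a cytosolic or kappa class (glutathione S-transferases). The mouse annotation holds 62 such genes. Of these, 57 were among the 21755 genes of the p16-3MR table and 39 among the 12643 rows of the wild-type (WT) table. Gstt4, Sult1c1, Sult6b1, Sult6b2 and Ugt2a1 were in neither. Levels are given in CPM, the counts scaled to a common library size within a table. A mean of at least 1 CPM over the 12 livers was reached by 51 members in the p16-3MR table and by 37 in the WT table. Reads were not assigned to members in the WT table where a row label fitted several genes, which left 1 of 7 measured Gstm members there.

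Bulk liver RNA was measured in 24 mice, 3 per group, in groups defined by genotype (p16-3MR or WT), sex, and treatment with ganciclovir (GCV) or vehicle (VEH, water at pH 11). p16-3MR mice carry a transgene under p16Ink4a regulatory sequence that encodes a luciferase, a red fluorescent protein and herpes simplex virus thymidine kinase, and the kinase turns GCV into a toxic product in cells in which that promoter is active. The p16-3MR mice were first injected intraperitoneally at an age of 16 to 18 months and then monthly, on 5 days each time, with a GCV dose of 150 mg/kg in the labels and a lower one in the study's methods, and their livers were taken in old age. WT mice lack the transgene, were treated monthly from 6 months of age and gave their livers after 3 months, although the labels also call them age-matched. The 12 p16-3MR livers form batch 1 and the 12 WT livers batch 2. Genotype, batch, age and length of treatment therefore cannot be told apart, the tables were normalised separately, and no test was made between them.

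UDP-glucuronosyltransferases sit in the endoplasmic reticulum and use UDP-glucuronic acid, sulfotransferases are cytosolic and use the sulfate donor PAPS, and glutathione S-transferases use glutathione. The Ugt1a genes share their 3′ exons and differ in a first exon that binds the substrate, whereas Ugt2, Sult2a, Gsta, Gstm and Gstp members are separate genes in clusters. In mouse liver several members are known to be expressed mainly in 1 sex, a pattern tied to the pulses of pituitary growth hormone.

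Total counts ranged from 5005760 to 7160172 per p16-3MR liver and from 3084517 to 5667904 per WT liver, and detection floors and the intervals called counting intervals cover counting error only, whereas the 95% intervals of log2 differences come from the edgeR fit and its spread between livers. The members took 0.604% to 0.906% of the counts of a WT liver and 0.0843% to 0.780% of those of a p16-3MR liver. The 2 lowest shares were in GCV-treated p16-3MR livers. In female 33, 64.0% of counts were from mitochondrially encoded genes and the members took 0.0843%, while its hepatocyte markers summed to 156500 CPM after TMM scaling (factor 0.259), the highest of the 12. In male 32, the members summed to 1005 CPM against 3260 to 7661 CPM in the other 11 livers, the 8 measured hepatocyte markers summed to 25340 CPM, and the macrophage and stellate cell markers reached 2828 and 1337 CPM, the highest of the 12. VEH-treated male 24 was next lowest for hepatocyte markers at 40840 CPM, with a member sum of 3416 CPM. For males 32 and 24, fewer cells of a type cannot be told apart from less RNA per cell in bulk tissue. The part of these 3 livers in the p16-3MR results was not tested beyond the fits without them. The WT table held only 2 of 9 hepatocyte markers (Ttr and Serpina1a), which summed to 12240 to 15610 CPM, and no marker was at 0 in every liver of either table.

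Members called by edgeR lay in the comparison of the sexes, among them sulfotransferases of the Sult2a and Sult3a groups, Gstp1, Gstp2 and Ugt2b38, and none was called for GCV against VEH. With the GCV and VEH livers of a sex pooled, 6 against 6, 26 of 39 members (66.7%) were called in WT livers at an adjusted p under 0.05, where 7.94% of all rows were called. Of these, 18 members (46.2%) were higher in females, against 3.89% of all rows, and 8 (20.5%) were higher in males, against 4.05%. In p16-3MR livers 8 of 57 members (14%) were called, against 0.303% of all genes. All 8 were higher in females (background 0.188%) and none was higher in males (background 0.115%). The median log2 difference, females minus males, was 0.50 over the WT members and 0.03 over all WT rows, and 0.40 over the p16-3MR members and -0.07 over all genes of that table. The hepatocyte marker sum moved with sex as well. In p16-3MR livers it was 89120 to 156500 CPM in females and 25340 to 89960 CPM in males, where 1 female lay below the highest male, and in WT livers its 2 measured markers summed to 12240 to 13670 CPM in females and 13850 to 15610 CPM in males. Of the other cell type lists, the 4 measured stellate cell markers in WT livers did not overlap between the sexes (276.5 to 340 CPM in females and 215.7 to 268.7 CPM in males). The part of these markers in the sex differences was not tested. The median standard error of a member's log2 difference was 0.12 in WT livers and 0.58 in p16-3MR livers, over members at 1 CPM or more. All calls came from the edgeR quasi-likelihood test with Benjamini-Hochberg adjustment over every row of a table.

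**Figure D1:**
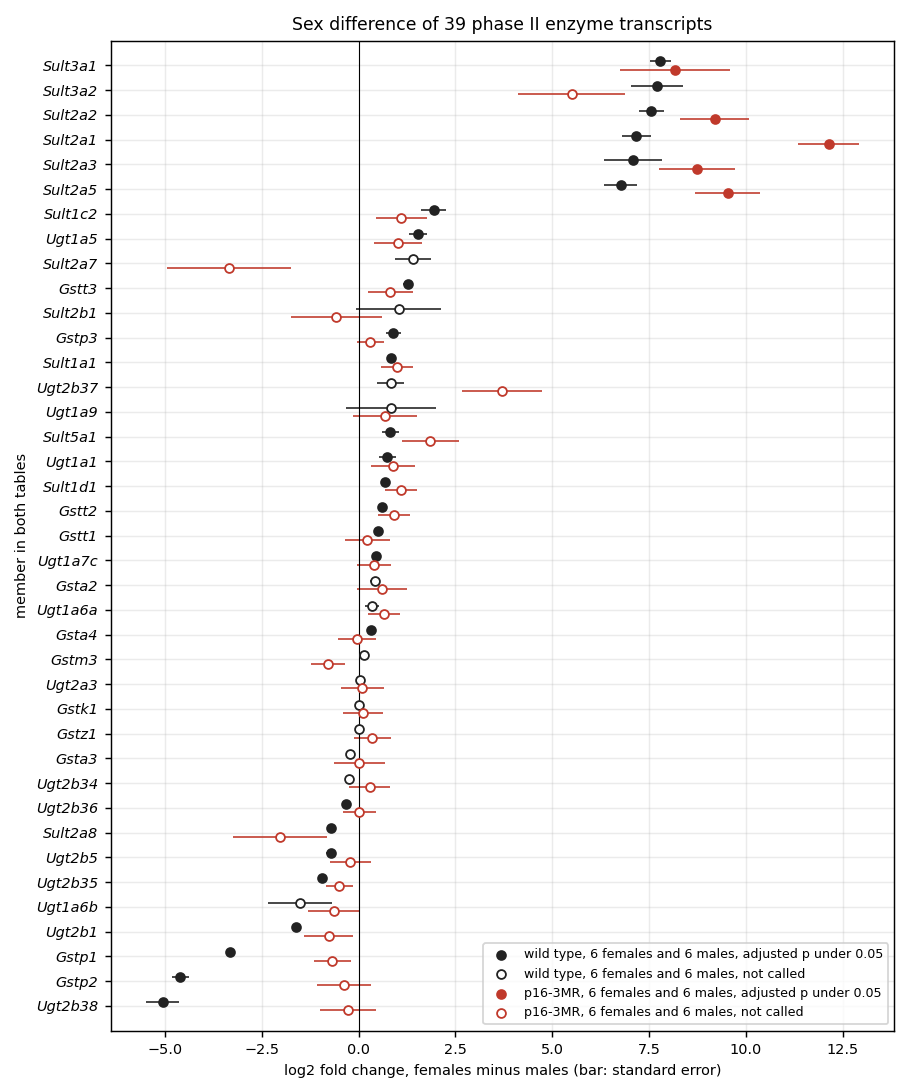
Log2 fold change, females minus males, with its standard error for the 39 members measured in both tables, WT and p16-3MR livers side by side (6 females against 6 males in each); filled points were called by edgeR at an adjusted p under 0.05. Sult2a1, Sult2a2, Sult2a3, Sult2a5, Sult3a1 and Sult3a2 lie far to the female side in both tables, and Ugt2b38, Gstp2 and Gstp1 to the male side in WT livers.

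Of 13 sulfotransferases in the WT table, 10 were called higher in females and 1 in males, and Sult2a7 and Sult2b1 were not called. Sulfotransferases of the Sult2a group act on hydroxysteroids and bile acids, and 6 of them lie together on chromosome 7 (mm10, chr7:13623967-14254870). Because these 6 genes were called higher in females wherever a table had a row for them, the 250 bases before the start of the 4 members found in the RefSeq promoter table of GRCm38.p6 are shown, each 5′ to 3′ on its gene's strand. Capitals mark the longest run that all 4 windows share, 15 bases long.
Sult2a3: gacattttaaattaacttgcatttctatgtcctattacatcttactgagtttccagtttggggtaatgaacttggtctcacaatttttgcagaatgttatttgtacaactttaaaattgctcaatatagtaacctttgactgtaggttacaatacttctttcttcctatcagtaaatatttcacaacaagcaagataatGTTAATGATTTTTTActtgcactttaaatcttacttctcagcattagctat
Sult2a4: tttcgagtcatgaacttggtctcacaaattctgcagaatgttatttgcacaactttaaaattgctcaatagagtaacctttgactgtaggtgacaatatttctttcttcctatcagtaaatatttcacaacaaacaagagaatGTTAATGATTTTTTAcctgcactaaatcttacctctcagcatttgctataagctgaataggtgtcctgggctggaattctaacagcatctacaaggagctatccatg
Sult2a5: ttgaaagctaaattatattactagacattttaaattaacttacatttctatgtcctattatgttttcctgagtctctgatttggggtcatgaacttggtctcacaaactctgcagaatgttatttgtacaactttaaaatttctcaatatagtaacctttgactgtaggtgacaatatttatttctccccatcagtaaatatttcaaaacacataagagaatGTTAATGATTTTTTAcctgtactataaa
Sult2a6: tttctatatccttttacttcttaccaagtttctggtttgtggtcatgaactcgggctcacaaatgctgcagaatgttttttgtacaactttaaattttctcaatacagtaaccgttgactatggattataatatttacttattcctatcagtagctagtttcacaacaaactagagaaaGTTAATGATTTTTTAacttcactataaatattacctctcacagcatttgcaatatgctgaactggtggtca
The windows are chr7:14123049-14123298 for Sult2a3, chr7:13989589-13989838 for Sult2a4 and chr7:14254871-14255120 for Sult2a6, all on the minus strand, and chr7:13623717-13623966 on the plus strand for Sult2a5. The capital run ends 37, 93, 14 and 57 bases before the start of Sult2a3, Sult2a4, Sult2a5 and Sult2a6. No other of the 32851 promoter windows held this run on either strand, so its share was 0.0122%. The run was picked because these 4 related windows share it, so this share is no test of it. Any part of the run in the sex differences was not tested. Pairs of these windows were identical at 81.6% to 92.7% of 169 to 229 aligned bases.

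Sult2a1 (chr7:13796246-13837409, minus strand), which sulfates dehydroepiandrosterone and bile acids, had the lowest adjusted p of the members in p16-3MR livers. In p16-3MR females it was at 226, 114 and 308 CPM after GCV and at 386, 176 and 278 CPM after VEH, whereas 5 of the 6 males were at 0 and the other at 0.423 CPM. In WT livers the 6 females ran from 79.3 through a median of 164 to 234 CPM and the 6 males from 0.219 through 0.471 to 7.94 CPM. Males and females did not overlap in either table. The log2 difference was 7.17 ± 0.37 (SE) in WT livers (adjusted p = 3.7e-12, edgeR quasi-likelihood test) and 12.13 ± 0.78 in p16-3MR livers (adjusted p = 2.5e-05, same test). With 1 liver left out it ran from 6.82 to 7.97 in WT livers and from 11.71 to 13.62 in p16-3MR livers. The p16-3MR males held 3 Sult2a1 counts in all, so the pooled female-to-male ratio of 3910 had a counting interval from 1340 to 19000, and the fitted value depends on the prior count.

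Sult2a2 and Sult2a5, neighbouring genes with less studied substrates, followed the same order. Sult2a2 was at 142 to 274 CPM (median 208) in WT females and 0 to 5.49 CPM (median 0.665) in WT males, a log2 difference of 7.56 ± 0.32 (adjusted p = 1.1e-13, edgeR). Sult2a5 was at 11.7 to 26.5 CPM (median 19.0) and 0 to 0.61 CPM (median 0.0967), a difference of 6.77 ± 0.43 (adjusted p = 1.13e-10, edgeR) that ran from 6.39 to 7.68 with 1 liver left out. In p16-3MR livers Sult2a2 was at 4.82, 27.8 and 111 CPM in GCV females, 119, 48.6 and 106 CPM in VEH females and at most 0.293 CPM in a male. The ranges of the sexes did not overlap for either gene in either table, and the p16-3MR log2 differences were 9.19 ± 0.89 for Sult2a2 (adjusted p = 1.49e-04, edgeR) and 9.52 ± 0.84 for Sult2a5 (adjusted p = 6.4e-05). With 1 liver left out they ran from 8.37 to 10.11 for Sult2a2 and from 8.75 to 10.67 for Sult2a5. Sult2a5 was at 10, 23.9 and 109 CPM in GCV females and 100, 37.0 and 99.8 CPM in VEH females, with 3 counts over all 6 males.

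Sult2a3, Sult2a4 and Sult2a6 were found almost only in females and were at 0 in some p16-3MR females. Sult2a3 was at 2.74 to 5.53 CPM in WT females and 0 in all 6 WT males. The pooled females lay 31.4-fold above a floor of 3 counts over the male group. The counting interval of the female-to-male ratio began at 25.1. In p16-3MR females Sult2a3 was at 8.48, 0 and 7.71 CPM after GCV and 70.9, 11.7 and 35.7 CPM after VEH, with 1 count in all males. Sult2a6 was at 1.35, 0, 24.8 (GCV), 31.1, 9.40 and 25.7 CPM (VEH) in p16-3MR females and 0 in all males. Its pooled females lay 271-fold above the same floor, and the counting interval of the ratio began at 220. Sult2a4 reached 14.6 CPM in p16-3MR females and was at 0 in the GCV-treated females 31 and 33. The adjusted p values in p16-3MR livers were 0.0014 for Sult2a3, 0.0235 for Sult2a6 and 0.045 for Sult2a4 (edgeR quasi-likelihood test). The Sult2a4 call was lost in 10 of the 12 fits that left out 1 liver and held only without GCV female 31 or GCV female 33. The Sult2a6 call was lost without VEH female 27, VEH female 29, GCV male 30 or VEH male 26, with adjusted p values of 0.0506 to 0.0581 (edgeR). Both genes had no row of their own in the WT table.

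Sult3a1 (chr10:33857721-33879532, plus strand), a sulfotransferase of amines, was at 74.3 to 126 CPM (median 84.2) in WT females and 0 to 1.53 CPM (median 0.267) in WT males. The log2 difference was 7.79 ± 0.28 (adjusted p = 4.72e-15, edgeR quasi-likelihood test) and ran from 7.47 to 8.41 with 1 liver left out. In p16-3MR females it spread from 0.771 CPM in GCV female 31 through 16.4 CPM in GCV female 35 to 134 CPM in GCV female 33, with 28.7, 21.4 and 6.92 CPM after VEH. The highest p16-3MR male, GCV male 34, was at 1.73 CPM and overlapped the lowest female. That difference was called (8.16 ± 1.43, adjusted p = 0.0364, edgeR), but the call held only without GCV female 31, VEH female 29, GCV male 34 or VEH male 24. In the other 8 fits without 1 liver the adjusted p was 0.0527 to 0.14. Over all 12 such fits the Sult3a1 difference ran from 6.96 to 9.22. The 250 bases before its start (GRCm38.p6, chr10:33857472-33857721, plus strand) are shown because they hold a match to TTCNNNGAA, the letters of a STAT5 site, in capitals 109 to 101 bases before the start.
Sult3a1: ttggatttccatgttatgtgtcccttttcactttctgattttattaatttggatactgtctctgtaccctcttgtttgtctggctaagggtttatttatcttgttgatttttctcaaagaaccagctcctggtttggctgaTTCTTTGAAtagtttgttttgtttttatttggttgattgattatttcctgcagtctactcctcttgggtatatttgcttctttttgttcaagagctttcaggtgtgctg
TTCNNNGAA was found on either strand in 7.02% of all promoter windows and in 4 of the 66 windows (6.06%) of the 55 members that had one (Gsta1, Gstm6, Sult3a1 and Ugt1a6a). TGACNNNGC, the core of the antioxidant response element, was in 10.2% of all windows and in 3 of the 66 (4.55%; Gsta3, Gstm5 and Gstm7). Both shares describe these letters in these windows and nothing more.

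Sult3a2, next to Sult3a1 on chromosome 10, was at 3.53 to 8.13 CPM in WT females and 0 in all WT males. It lay 49.4-fold above the floor of 3 counts over the male group, with a counting interval of the ratio that began at 39.7. In p16-3MR livers it stayed under a mean of 1 CPM, was also at 0 in all males, and was not called (adjusted p = 0.346, edgeR). Sult1e1 (chr5:87575969-87591594, minus strand) is the estrogen sulfotransferase, which inactivates estradiol. It was at 99.7, 34.8 and 6.37 CPM in GCV females, 38.6, 3.04 and 6.29 CPM in VEH females, and between 0 and 0.781 CPM in the 6 males of the p16-3MR table. Every female lay above every male, and the log2 difference was 6.80 ± 0.90 (adjusted p = 0.00253, edgeR quasi-likelihood test). The pooled counts were 959 in females and 14 in males, a ratio of 85.0 with a counting interval of 50.4 to 156. GCV female 31 held 517 of the female counts and GCV male 32 held 8 of the male counts. The ratio was 46.0 without that female and 151 without that male, and between 73.3 and 104 without any 1 of the other livers. In the WT table the Sult1e1 label could not be separated from that of Sult1b1.

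The remaining sulfotransferases differed less between the sexes. Sult1a1, the main phenol sulfotransferase of liver, was at 272 to 387 CPM (median 367) in WT females and 166 to 248 CPM (median 190) in WT males, without overlap, a log2 difference of 0.85 ± 0.10 (adjusted p = 2.25e-06, edgeR). In p16-3MR livers the Sult1a1 difference was 0.98 ± 0.41, females at 165 to 811 CPM and males at 84.7 to 276 CPM, and was not called (adjusted p = 0.685). Sult1c2 was higher in WT females (3.61 to 11.5 CPM against 0.58 to 3.46 CPM, 1.94 ± 0.32, adjusted p = 2.58e-04, edgeR). Sult1d1 and Sult5a1 were also called higher in WT females. Sult2a8, which sulfates bile acids and lies beside the female-higher Sult2a genes, went the other way. It was at 226 to 345 CPM (median 312) in WT females and 449 to 522 CPM (median 461) in WT males, a difference of -0.70 ± 0.08 (adjusted p = 2.13e-06, edgeR). In p16-3MR livers Sult2a8 ran from 2.32 to 156 CPM in females and from 0.195 CPM in GCV male 32 to 492 CPM in VEH male 26, a difference of -2.02 ± 1.22 that was not called (adjusted p = 0.719).

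**Figure D2:**
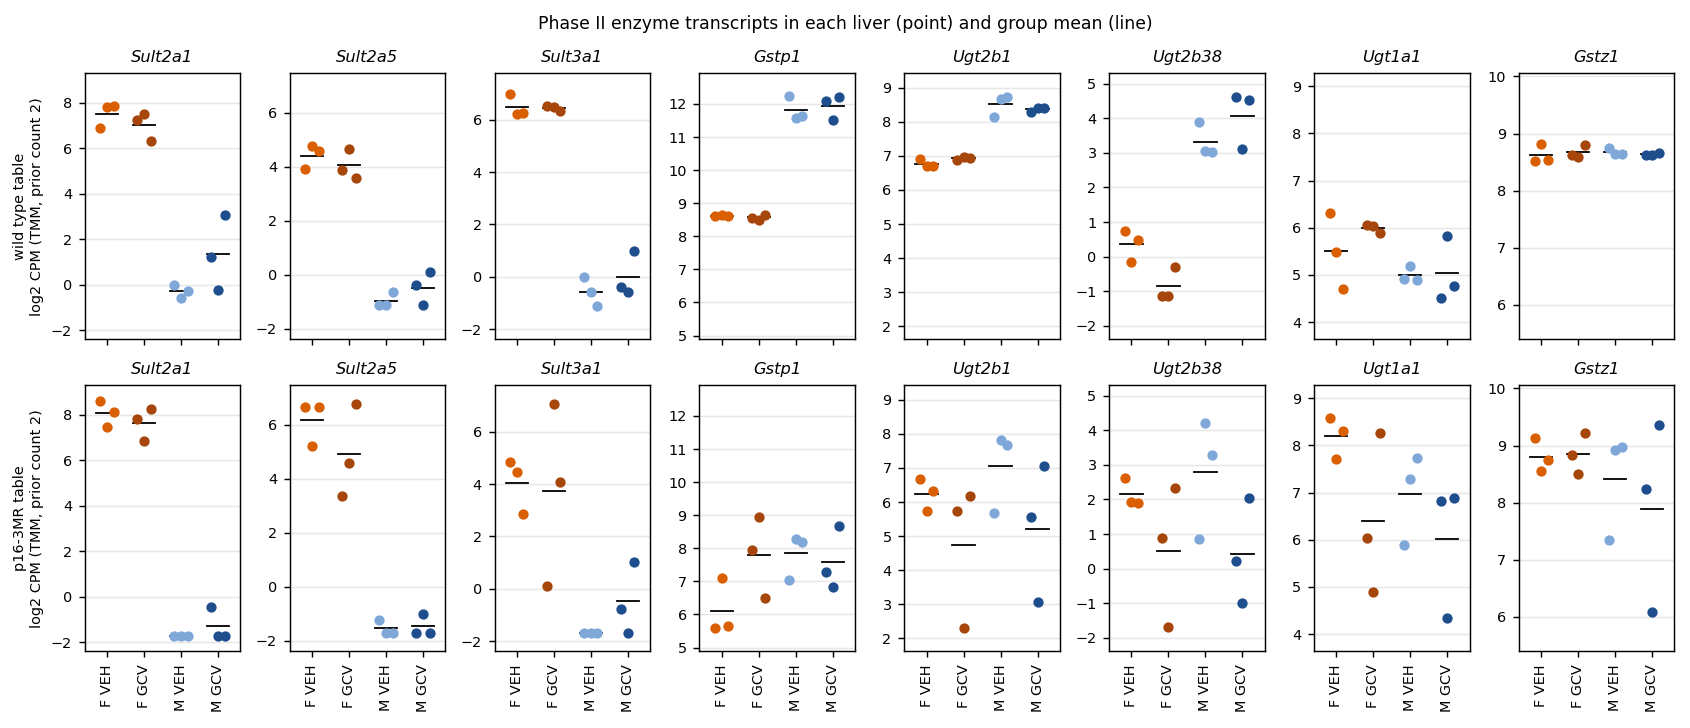
Log2 CPM (prior count 2, each table normalised alone) of 8 members in every liver, by sex and treatment, with p16-3MR and WT livers in separate panels; each point is 1 liver and each line a group mean of 3. Females and males separate without overlap for Sult2a1 and Sult2a5 in both tables and for Gstp1, Ugt2b1 and Ugt2b38 in WT livers, whereas the 4 WT groups overlap for Gstz1.

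Of 12 glutathione S-transferases in the WT table, 5 were called higher in females and 2 in males, and the pi class showed the largest difference. Gstp1 (chr19:4035407-4037985, minus strand), which conjugates electrophiles and restrains stress kinases, was at 378, 362 and 403 CPM in GCV and 393, 396 and 387 CPM in VEH females of the WT table. WT males were at 4310, 2940 and 4740 CPM after GCV and 4790, 3080 and 3200 CPM after VEH. All males were far above all females, a log2 difference of -3.31 ± 0.12 (adjusted p = 4.91e-15, edgeR quasi-likelihood test). Its neighbour Gstp2 was at 2.37 to 7.23 CPM in WT females and 62.5 to 118 CPM in WT males, -4.61 ± 0.22 (adjusted p = 1.05e-12). Gstp3, the next gene of that cluster, was higher in WT females by 0.90 ± 0.20 (adjusted p = 0.00648, edgeR). The summed level of all members was 5436 to 6350 CPM in WT females and 8338 to 10460 CPM in WT males.

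In p16-3MR livers the Gstp1 difference did not pass the test. Females were at 244, 492 and 90.2 CPM after GCV and 47.6, 138 and 50.5 CPM after VEH, and males at 155, 115, 408 (GCV), 133, 313 and 293 CPM (VEH). The sexes overlapped, and the log2 difference of -0.68 had a 95% interval from -1.71 to 0.35 (adjusted p = 0.75, edgeR). With the GCV and VEH livers pooled, Gstp2 likewise overlapped between the sexes (-0.38 ± 0.69). In VEH livers alone Gstp2 was at 61.9, 9.55 and 63.8 CPM in females and at 146, 353 and 134 CPM in males, without overlap. After GCV it was at 5.21, 0 and 36.7 CPM in females and at 8.74, 2.54 and 4.80 CPM in males, with overlap. Whether the WT and p16-3MR sex differences themselves differ was not tested, since the tables differ in batch, age and treatment length.

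The theta class was higher in WT females throughout. Gstt1, which conjugates small halogenated compounds, was at 336 to 455 CPM in females and 246 to 323 CPM in males, a log2 difference of 0.50 ± 0.09 (adjusted p = 3.87e-04, edgeR quasi-likelihood test), without overlap. Gstt2 and Gstt3 were also called, by 0.61 and 1.26. In p16-3MR livers the 3 theta members had differences of 0.22, 0.91 and 0.82 and none was called. Gsta3, an alpha-class enzyme that detoxifies aflatoxin epoxide in mice, was at 857 to 1320 CPM in WT females and 1170 to 1480 CPM in WT males (-0.23 ± 0.08, adjusted p = 0.0816). Gsta2 also fell just outside the threshold (0.43 ± 0.13, adjusted p = 0.0508), and Gsta4 just inside it (0.32 ± 0.09, adjusted p = 0.0353, edgeR). Gstm1, the mu-class enzyme measured alone only in the p16-3MR table, was at 565 to 1140 CPM in females and 232 to 1570 CPM in males (-0.23 ± 0.44, adjusted p = 0.979). Gstz1, an isomerase of tyrosine breakdown, had a WT difference of 0.00 with a 95% interval from -0.15 to 0.15.

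The Ugt2b enzymes, which glucuronidate steroids, phenols and drugs, stood on the male side in WT livers, where 5 of 8 Ugt2 members were called higher in males and none in females. Ugt2b38 (chr5:87409942-87424203, minus strand) was at 0 to 1.20 CPM (median 0.404) in WT females and 7.74 to 23.9 CPM (median 11.3) in WT males, a log2 difference of -5.05 ± 0.43 (adjusted p = 1.89e-08, edgeR quasi-likelihood test). With 1 liver left out the difference ran from -6.35 to -4.80. Ugt2b1 was at 103 to 126 CPM (median 118) against 282 to 425 CPM (median 341), -1.61 ± 0.09 (adjusted p = 2e-11). Ugt2b5 was at 219 to 343 CPM against 360 to 620 CPM, -0.72 ± 0.11 (adjusted p = 1.88e-04). For all 3 every WT male lay above every WT female. Ugt2b35 and Ugt2b36 were called in the same direction (-0.95 and -0.34), although in GCV livers alone the Ugt2b36 difference was -0.14 and not called (adjusted p = 0.634, edgeR), and Ugt2b34, Ugt2b37 and Ugt2a3 were not called. In p16-3MR livers none of 9 Ugt2 members was called. There Ugt2b38 was at 0 to 5.90 CPM in females and 0.195 to 18.2 CPM in males (-0.27 ± 0.72), and Ugt2b1 at 4.63 to 101 CPM and 8 to 226 CPM (-0.77 ± 0.64).

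The Ugt1a genes (chromosome 1, with Ugt1a7c at chr1:88095062-88220002 and Ugt1a1 at chr1:88211959-88218997, plus strand) counted 6 in the WT table, of which 3 were called higher in females and Ugt1a6a, Ugt1a6b and Ugt1a9 were not called. Ugt1a7c was at 443 to 588 CPM (median 493) in WT females and 333 to 423 CPM (median 351) in WT males, 0.45 ± 0.08 (adjusted p = 7.28e-04, edgeR). Ugt1a5 was at 49.6 to 87.5 CPM against 7.02 to 39.2 CPM, 1.53 ± 0.24 (adjusted p = 1.22e-04). Ugt1a1, the enzyme that conjugates bilirubin, was at 25.6 to 79.3 CPM against 22.3 to 56.6 CPM, and overlapped between the sexes (0.74 ± 0.22, adjusted p = 0.0345, edgeR). That call was lost without GCV female 4 or 5, VEH female 4, GCV male 1 or 3, or VEH male 3, with an adjusted p of up to 0.129. It was also lost with DESeq2 (adjusted p = 0.134), after filterByExpr (adjusted p = 0.0531, edgeR) and in VEH livers alone (adjusted p = 0.267, edgeR). These libraries read the 3′ end, and every 31-base stretch in the last 500 bases of Ugt1a1, Ugt1a2, Ugt1a5, Ugt1a6a, Ugt1a6b, Ugt1a8 and Ugt1a9 transcripts is also found in another gene. For Ugt1a10 it is 91.9% and for Ugt1a7c 43.9%. Salmon divides such reads among the genes, so the level of a single Ugt1a gene is uncertain and the sum over them is given as well.

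In the p16-3MR table Ugt1a8 and Ugt1a10 came and went between livers of a group. Ugt1a8 was at 462, 86.5 and 0 CPM in GCV females, 0 in all VEH females, 108, 0 and 247 CPM in GCV males and 0, 18.8 and 0 CPM in VEH males. Ugt1a10 was at 126 CPM in GCV female 35 and 0 in the other GCV females. Summed over the 9 Ugt1a members, GCV females were at 979, 302 and 990 CPM and VEH females at 922, 637 and 830 CPM, while GCV males were at 515, 101 and 907 CPM and VEH males at 244, 659 and 689 CPM. The groups overlapped, and the summed log2 difference GCV minus VEH was -0.07 ± 0.72 in females and -0.06 ± 0.72 in males. Summed over the 6 Ugt1a members of the WT table, females were at 642 ± 32.6 CPM (SD, n = 6) and males at 436 ± 51.6 CPM, a log2 difference of 0.56 ± 0.08 (adjusted p = 3.1e-05, edgeR quasi-likelihood test). The sex difference of the p16-3MR sum was 0.58 ± 0.51 and was not called (adjusted p = 0.824).

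**Figure D3:**
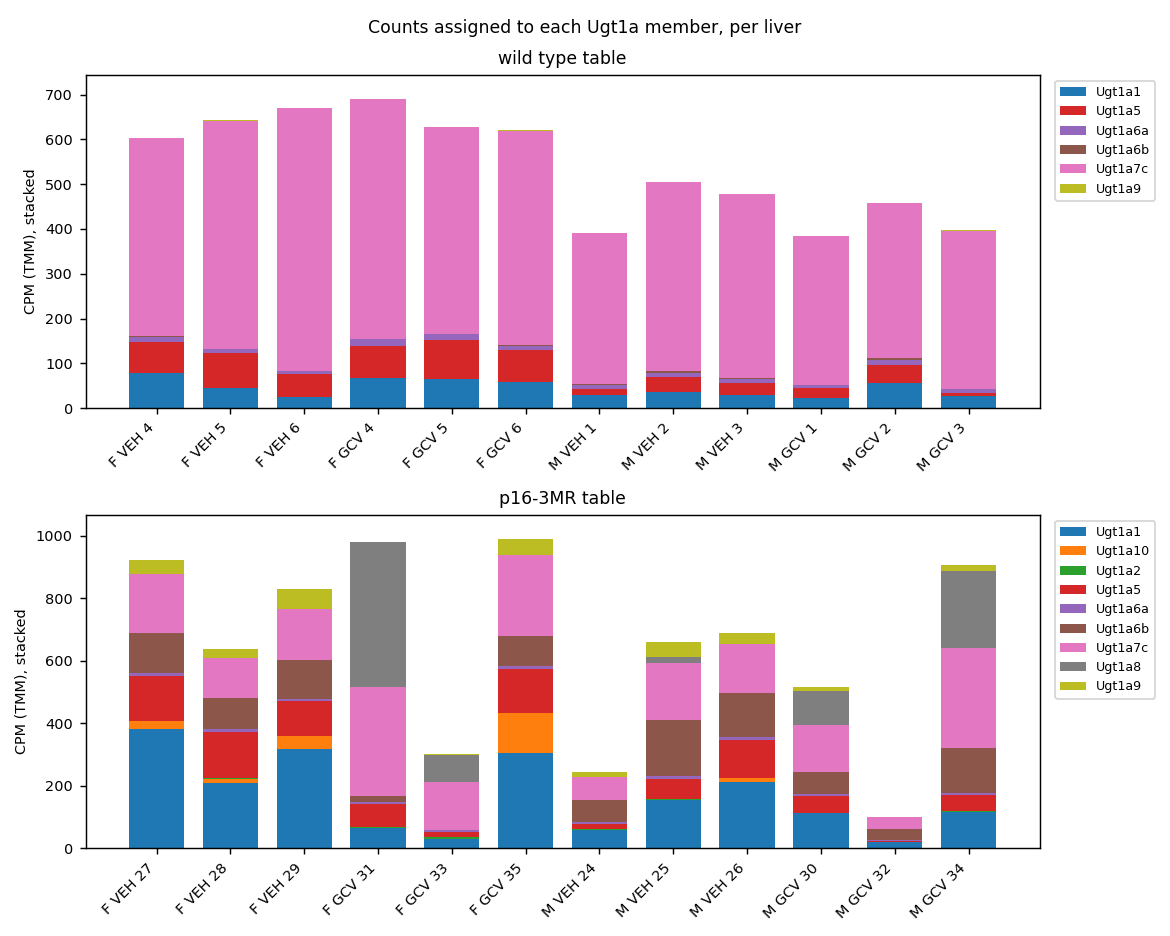
Stacked bars of CPM for the Ugt1a members in each liver, p16-3MR and WT tables in separate panels, 1 bar per liver and 1 colour per member. In p16-3MR livers the make-up of the bars changes from liver to liver within a group, Ugt1a8 for example from 462 to 0 CPM among GCV females, and the shortest bar is GCV male 32 at 101 CPM.

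Other members share reads too, with 30 of 62 members sharing over 10% and 17 over 50% of these 31-base stretches. The share was 94.5% for Gsta1, 75.5% for Gsta2, 84.0% for Gstp1 and 61.3% for Gstp2. It was 68.5% for Sult2a2, 63.4% for Sult2a5, 52.2% for Sult2a4, 37.2% for Sult2a1 and 32.3% for Sult2a3. Summed over the Sult2a1 to Sult2a6 group, p16-3MR females were at 425 ± 221 CPM (SD, n = 6) and males at 0.256 ± 0.263 CPM, a log2 difference of 10.61 ± 0.70 (adjusted p = 6.28e-06, edgeR quasi-likelihood test). In the WT table the 4 measured genes of the group summed to 399 ± 118 CPM in females and 3.52 ± 5.26 CPM in males, 7.35 ± 0.36 (adjusted p = 1.08e-12). GCV male 3 was at 14.0 CPM, and without it the male mean was 1.41 ± 1.20 CPM. The sum of Gstp1 and Gstp2 differed by -3.33 ± 0.12 in WT livers (adjusted p = 3.54e-15, edgeR) and by -0.78 ± 0.41 in p16-3MR livers, where it was not called (adjusted p = 0.698). In p16-3MR VEH livers this sum was at 110, 148 and 114 CPM in females and 278, 665 and 427 CPM in males. After GCV it was at 249, 492 and 127 CPM against 164, 117 and 412 CPM. Only in the VEH livers did the sexes not overlap.

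Of the 39 members in both tables, 5 were called between the sexes in both (Sult2a1, Sult2a2, Sult2a3, Sult2a5 and Sult3a1), 21 in WT livers alone and none in p16-3MR livers alone. The other 3 members called in p16-3MR livers (Sult2a4, Sult2a6 and Sult1e1) had no row of their own in the WT table. Of the 26 called in WT livers, 24 had the same sign in p16-3MR livers and 2, Gsta4 and Ugt2b36, the opposite one. The matching shares over all genes measured in both tables are not given, so this overlap is not read as particular to the members. Of the p16-3MR calls, those of Sult1e1, Sult2a1, Sult2a2, Sult2a3 and Sult2a5 held in every fit without 1 liver, and of the WT calls 23 of 26 did, the exceptions being Ugt1a1, Sult5a1 (lost without VEH female 6, VEH male 2 or VEH male 3) and Gsta4 (kept only without VEH female 5 or GCV male 2).

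The comparison of GCV with VEH asked whether removing cells with an active p16 promoter, or GCV itself in WT mice, changed these enzymes. In p16-3MR females 0 of 57 members were called by the edgeR quasi-likelihood test, and 0% of all genes were. At an unadjusted p under 0.05 there were 5 members (8.77%), against 7.37% of all genes, and DESeq2 called 1 (Ugt1a8, whose reads are shared as above), against 0.701% of the genes it gave an adjusted p. Limma-voom called no member, against 0.0322% of all genes. In p16-3MR males 0 were called, again against 0%. There 3 members (5.26%) had an unadjusted p under 0.05, against 1.91% of all genes, and DESeq2 called 2 (Gstp2 and Ugt1a10), against 0.0231%. Ugt1a10 was at 10.6 CPM in VEH male 26 and at 0 in the other males, and its reads are shared as above. Limma-voom called 1 (Gstp2), against 0.667% of all genes. Among members the lowest adjusted p was 0.646 for females and 1 for males. The median log2 difference was -0.38 over the 57 members in females (18 above 0 and 39 below), where it was 0.00 over all genes, and -0.37 in males (16 above and 40 below), where it was 0.04 over all genes. The lowest member sums of each sex were those of GCV female 33 and GCV male 32 described above. Among the cell type lists, stellate cell markers summed to 251.8 to 324 CPM in GCV females and 330.7 to 396.2 CPM in VEH females, and cholangiocyte markers to 86.4 to 143 CPM in GCV males and 50.3 to 64.1 CPM in VEH males, each without overlap. Macrophage markers (107.5 to 322.1 CPM against 291.1 to 932 CPM) and lymphocyte markers (2.31 to 12.4 CPM against 9.25 to 68.1 CPM) were mostly lower in GCV females, with overlap. The part of these markers in the GCV differences was not tested. Without GCV livers 33 and 32 the median was -0.10 in females (24 above 0 and 33 below) and 0.00 in males (27 above and 26 below). Again 0 members were called in either sex in that fit, for which the share over all genes is not given. With limma-voom and its sample weights the median was -0.57 in males (11 above 0 and 46 below), where it was -0.05 over all genes. In females it was -0.34 (19 above 0 and 38 below), where it was 0.10 over all genes.

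Over p16-3MR members at 1 CPM or more, the standard error had a median of 0.79 for females and 0.83 for males. Not 1 of these 51 members had a 95% interval that stayed within a 2-fold change in either direction, so each interval reached beyond a 2-fold change in at least 1 direction. The members with the 3 lowest p values in females were Sult4a1, Sult2a3 and Ugt1a8. Sult4a1, known from brain, was under a mean of 1 CPM. Sult2a3 was lower in all 3 GCV females (8.48, 0 and 7.71 CPM) than in the VEH females (70.9, 11.7 and 35.7 CPM), a log2 difference of -2.73 ± 0.83 that did not pass the adjustment (adjusted p = 0.646, edgeR quasi-likelihood test). The Sult2a1 to Sult2a6 sum differed by -0.66 ± 0.63 in these females (adjusted p = 0.778).

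In p16-3MR males the lowest p was that of Gstp2. It was at 8.74, 2.54 and 4.80 CPM after GCV and 146, 353 and 134 CPM after VEH. The groups did not overlap, the log2 difference was -5.30 ± 1.16 (95% interval -7.78 to -2.81), and edgeR gave an adjusted p of 1. DESeq2 (adjusted p = 0.00236) and limma-voom (adjusted p = 0.0177) called it. Gstp2 shares 61.3% of its 3′ stretches, mostly with Gstp1, and Gstp1 in the same livers was at 155, 115 and 408 CPM after GCV and 133, 313 and 293 CPM after VEH. Summed, the pair was at 164, 117 and 412 CPM after GCV and 278, 665 and 427 CPM after VEH, which overlapped (-0.98 ± 0.59, adjusted p = 1, edgeR). In females the sum differed by 1.22 ± 0.59 (adjusted p = 0.67), and the difference between the sexes in this response was 2.20 ± 0.83 (adjusted p = 0.976, edgeR). Gsta1 was at 8.75, 6.43 and 0 CPM in VEH males and 0 in all GCV males. It shares 94.5% of its 3′ stretches with other genes. Summed with Gsta2, the difference in males was -1.36 ± 0.93 and was not called. Ugt2b38 was at 0.845, 0.195 and 3.84 CPM after GCV and 1.52, 18.2 and 9.38 CPM after VEH, which overlapped.

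**Figure D4:**
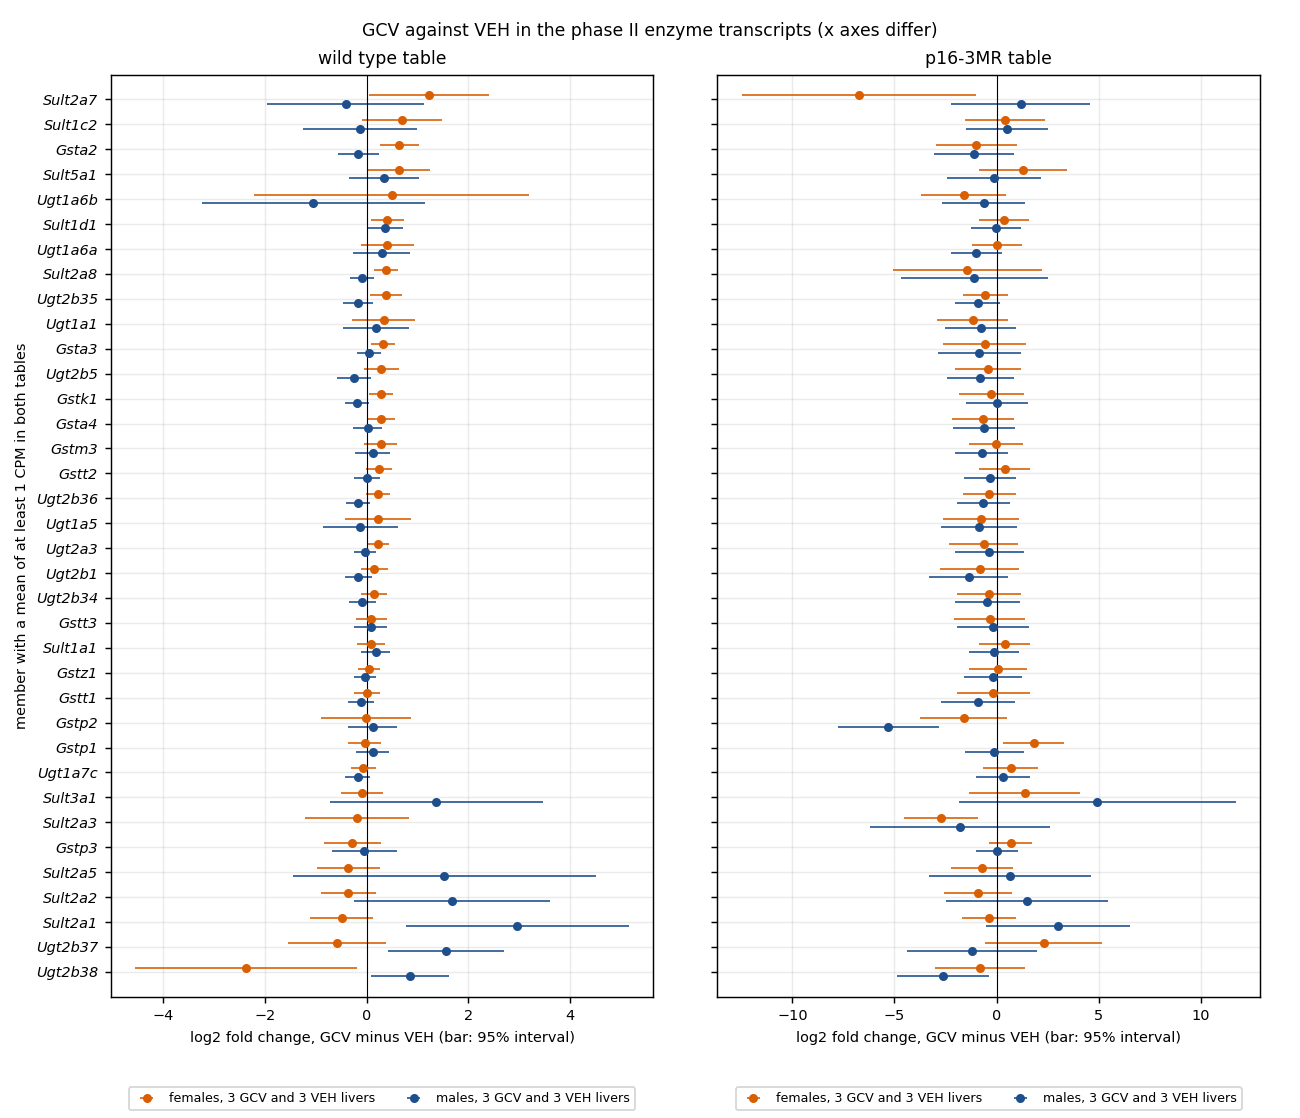
Log2 fold change, GCV minus VEH, with its 95% interval in females and in males (3 livers against 3) for members with a mean of at least 1 CPM in both tables, p16-3MR and WT livers in separate panels whose horizontal scales differ. No member was called by edgeR in any panel (DESeq2 and limma-voom called Gstp2 in p16-3MR males), and the p16-3MR intervals all reach beyond a 2-fold change while, over all WT members at 1 CPM or more, 27 of 37 intervals in females and 25 of 35 in males lie within it.

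In WT mice, which lack the kinase, 0 of 39 members were called after GCV in females by the edgeR quasi-likelihood test, against 0.00791% of all rows. At an unadjusted p under 0.05 there were 11 members (28.2%), 10 of them higher after GCV, against 4.56% of all rows. In WT males 0 were called, against 0%, and 4 members (10.3%), all higher, had an unadjusted p under 0.05, against 5.06% of all rows. DESeq2 called no member in either sex, against 0.321% of the rows it gave an adjusted p in females and 0.00791% in males, and limma-voom none, against 0.0237% and 0%. The median log2 difference over the members was 0.22 in females (27 above 0 and 12 below), where it was 0.00 over all rows, and 0.00 in males. In WT males the 2 measured hepatocyte markers summed to 13850 to 14640 CPM after GCV and 14830 to 15610 CPM after VEH, and the 4 erythroid markers to 1660 to 3766 CPM and 1494 to 1622 CPM, both without overlap, and their part in the GCV differences was not tested. The standard error of a member had a median of 0.16 in each sex, and 27 of 37 members in females and 25 of the 35 with an interval in males had 95% intervals within a 2-fold change.

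Gsta2, an alpha-class enzyme that reduces lipid peroxides, had the lowest p in WT females. It was at 69.6, 76.8 and 66.9 CPM after GCV and 46.9, 35.2 and 54.3 CPM after VEH, without overlap, a log2 difference of 0.64 ± 0.18 (adjusted p = 0.612, edgeR). Fitted on the 6 females alone it was called (adjusted p = 0.0367, edgeR), as were 0.348% of all rows in that fit. Gsta2 shares 75.5% of its 3′ stretches with other genes, so its single level is uncertain. Sult2a8 was at 331, 345 and 319 CPM against 305, 228 and 226 CPM (0.39 ± 0.11, adjusted p = 0.629). Gsta3 was at 1200, 1160 and 1320 CPM against 857, 1150 and 958 CPM (0.31 ± 0.11, adjusted p = 1). For these 3 members every GCV female was above every VEH female. In WT males the lowest p values were those of Ugt2b37, Sult2a1 and Ugt2b38, all with an adjusted p of 0.889 (edgeR). Ugt2b37 was at 3.46, 1.85 and 11.9 CPM after GCV and 1.86, 2.19 and 1.55 CPM after VEH. Sult2a1 was at 1.89, 0.410 and 7.94 CPM after GCV and 0.532, 0.219 and 0.387 CPM after VEH, levels far under those of WT females, and its highest value was in GCV male 3. Ugt2b38 was at 23.9, 8.21 and 22.6 CPM against 14.4, 7.87 and 7.74 CPM.

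Whether females and males responded differently to GCV was tested as an interaction. In p16-3MR livers 0 of 57 members were called by the edgeR quasi-likelihood test, against 0% of all genes, and 3 (5.26%) had an unadjusted p under 0.05, against 3.78%. These were Gstp2, Sult2a7 and Gsta1, each with an adjusted p of 0.976. DESeq2 and limma-voom called no member for this difference, against 0.0138% and 0.0046% of all genes. In WT livers 0 of 39 were called, against 0.00791%, and 10 (25.6%) had an unadjusted p under 0.05, against 4.45%. The lowest adjusted p was 0.982, and DESeq2 and limma-voom again called none, each against 0.00791%. Of the 10, Gsta2, Sult2a8, Gstk1, Ugt2b35, Ugt2b36 and Ugt2b5 had a higher difference in females, and Sult2a1, Sult2a2, Ugt2b37 and Ugt2b38 a higher one in males.

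Genes that supply or surround these enzymes were read from 7 lists of 63 genes, of which 61 were in the p16-3MR table and 27 in the WT table. None was called by edgeR for GCV against VEH in either sex or table, and at an unadjusted p under 0.05 there were 8 in p16-3MR females, 3 in p16-3MR males, 4 in WT females and 1 in WT males, where the shares over all genes or rows were 7.37%, 1.91%, 4.56% and 5.06%. Between the sexes 8 of 27 were called in WT livers, 4 higher in females and 4 higher in males (7.94% over all rows), and 1 of 61 in p16-3MR livers (0.303% over all genes). Ugdh, which makes UDP-glucuronic acid, was at 53.5 to 79.6 CPM in WT females and 70.2 to 128 CPM in WT males (-0.50 ± 0.13, adjusted p = 0.0139, edgeR). Slc35d1, which carries that sugar into the endoplasmic reticulum, was at 78.1 to 98.4 CPM and 109 to 139 CPM (-0.50 ± 0.09, adjusted p = 4.51e-04). The other measured gene of that list was not called. Mat1a, which makes S-adenosylmethionine and lies upstream of glutathione, was higher in WT females (0.68 ± 0.07, adjusted p = 3.52e-07, edgeR).

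The epoxide hydrolases Ephx1 (microsomal) and Ephx2 (soluble), whose epoxide substrates overlap with those of glutathione S-transferases, were lower in WT females by -0.53 ± 0.11 (adjusted p = 0.00376, edgeR) and -0.70 ± 0.07 (adjusted p = 2.34e-07). The transporter Abcc6 was higher in WT females by 0.43 ± 0.11 (adjusted p = 0.0144, edgeR). Among 12 measured regulators, Nr1i3, the xenobiotic receptor CAR, was higher in WT females (133 to 203 CPM against 77.7 to 148 CPM, 0.54 ± 0.14, adjusted p = 0.0211, edgeR). Cux2, a transcription factor known to be female-biased in mouse liver, was at 7.22 to 39.2 CPM in WT females and 0 to 1.53 CPM in WT males (5.43 ± 0.49, adjusted p = 6.16e-08, edgeR). In p16-3MR livers Cux2 was at 23.7 to 154 CPM in females and 0 to 11.0 CPM in males (4.95 ± 0.79, adjusted p = 0.0107), and it was the 1 gene of the lists called there.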

How the data were processed

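Liver RNA was sequenced from the 3′ end of transcripts (Smart-3SEQ, no molecular identifiers described). The authors trimmed reads (Trim Galore 0.6.10, after FastQC 0.11.9), estimated transcript abundance with Salmon 1.10.3 and summed it to genes with tximport, leaving out genes with fewer than 3 reads; the submitters' processing notes name mm10. The authors deposited estimated counts per gene (expected counts), held as whole numbers and not scaled. Such estimates divide reads shared by related genes, and PCR copies are counted as reads.

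The p16-3MR table gives Ensembl identifiers, of which 21698 had a symbol in GENCODE M21. The WT labels lack 9 lower-case letters: 10500 matched 1 symbol, 2069 several and 74 none, and only the first were used. All 24 libraries were used. Counts were fitted per table with edgeR 4.0.16 in R 4.3.3 (TMM scaling, 1 mean per group, quasi-likelihood test, Benjamini-Hochberg adjustment over all rows, calls at an adjusted p under 0.05). CPM uses TMM-scaled library sizes. The replicates are separate mice. The scripts were tested on simulated data. Alternatives were DESeq2 1.42.0 (the tool of the study) and its size factors, limma-voom 3.58.1 with sample weights, filterByExpr, mitochondrial genes left out, 1 sex or 1 treatment alone, each liver left out, a replicate block, a threshold of 0.1, and, chosen after seeing the data, counts summed over members that share 3′ sequence and GCV livers 33 and 32 left out together.

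Named genes were in each comparison up to 12 called members, ranked by the size of their log2 fold change, with a mean of at least 1 CPM, the highest member of each subfamily, the members with the 3 lowest p values for GCV in each table and sex, and called genes of the pathway lists. Other members named in the text were chosen after their values were seen. The members and lists were chosen with earlier results of these data known. Members with shared reads were found by 31-base stretches in the last 500 bases of their transcripts, joined at 10%, in place of a planned comparison of proteins. Promoters and their starts are those of RefSeq (GRCm38.p6), where 55 of 62 members matched; identity was computed with Biopython 1.88.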

Additional observations from a re-analysis of the deposited data

Results flagged for a closer look

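Gstk1, the kappa-class glutathione S-transferase of mitochondria and peroxisomes, had GCV minus VEH differences of opposite sign in WT females and males, with no overlap between the GCV and VEH livers of either sex, and was called in neither (adjusted p = 1 in females and 0.889 in males, edgeR quasi-likelihood test). In females it was at 141, 137 and 154 CPM after GCV and 109, 131 and 115 CPM after VEH, a log2 difference of 0.28 ± 0.11. In males it was at 131, 104 and 130 CPM after GCV and 138, 145 and 133 CPM after VEH, a log2 difference of -0.19 ± 0.12. The difference between these differences was 0.48 ± 0.16 and did not pass the adjustment over all rows (adjusted p = 0.982, edgeR quasi-likelihood test).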

How the results depend on the processing

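Among members called between the sexes and the 3 with the lowest p for GCV in each table and sex, no value changed direction: of 926 alternative values, 857 kept their side of the threshold, 62 lost the call and 7 gained it. Between the sexes, members called in p16-3MR livers numbered 8, against 5 with filterByExpr, 4 in GCV livers alone (fewer livers), 3 when members with shared 3′ sequence were summed (fewer rows), and 5 to 8 with 1 liver left out, 5 being without VEH female 27, GCV male 30 or VEH male 26. Without GCV livers 33 and 32 there were 7. In WT livers the 26 calls became 19 to 30 over all alternatives, 19 in VEH livers alone. The share of all genes or rows called in these alternative sex fits is not given. Their counts are therefore not read as a result about the members. For GCV, the 0 called in p16-3MR females became 1 with DESeq2 (Ugt1a8), and the 0 in p16-3MR males 2 with DESeq2 (Gstp2 and Ugt1a10) and 1 with limma-voom (Gstp2). The 0 in WT females became 1 when females were fitted alone (Gsta2). In single-treatment fits, which hold fewer livers, the sex call was lost for Gsta4, Gstp3, Gstt1, Gstt2, Sult1c2, Sult5a1, Ugt1a1 and Ugt1a7c in WT and Sult1e1 in p16-3MR VEH livers, and for Gstp3 and Ugt2b36 in WT and Sult2a3, Sult2a4, Sult2a6 and Sult3a1 in p16-3MR GCV livers. The cause of the other changes was not tested. Other scalings left every median of all genes within 0.1 of 0 except limma-voom (0.10 in p16-3MR females and in the difference between the sexes) and the fit without mitochondrial genes (-0.10 for females minus males).

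With replicate number as a block, WT members called were 2 in females (Gsta2 and Sult2a8), 1 in males (Sult2a1) and 3 in the difference between the sexes (Gsta2 higher, Sult2a1 and Sult2a2 lower), with 106, 68 and 79 calls over all rows. The numbers were not taken to pair the livers: deviations of same-numbered livers over 9056 genes correlated at -0.05, -0.04 and 0.02 in females and at 0.18, 0.26 and -0.04 in males. Livers of different numbers correlated at -0.04 to 0.08 in females and at -0.32 to 0.14 in males. The male pairs numbered 1 and 2 lay above every pair of different numbers, so these values do not decide whether the males were paired. No paired analysis was possible for the sexes or for the p16-3MR livers because they share no replicate numbers. Accepting WT labels with a single protein-coding match added 0 members. At the spread between p16-3MR livers, the 95% interval of every member at 1 CPM or more reached beyond a 2-fold change for GCV.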

Other observations

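Some members share a WT label with other genes, so the summed or single gene behind the label is unknown. The label that could stand for Gstm1, Gsto1 or other genes was at 965 to 1110 CPM in the 6 WT females and 814 to 1160 CPM in the 6 males. The label of either Sult1b1 or Sult1e1 was at 24.2 to 49.2 CPM in females and 33.4 to 47.3 CPM in males, with overlap between the sexes. The label of either Gsta1 or Ggta1 was at 1.72 to 11.5 CPM and 2.66 to 13 CPM.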
